A study of Mus musculus with 2 samples.

Results

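The nuclear and mitochondrial genes of oxidative phosphorylation, the mitochondrial ribosome and protein import were compared between mast cells with and without Tet2. Members were the rows of the deposited table whose symbol starts with Mrpl, Mrps, Ndufa, Ndufb, Ndufc, Ndufs, Ndufv, Cox and a digit, Uqcr, Sdh, Atp5, Timm, Tomm, mt-Nd, mt-Co, mt-Cytb or mt-Atp, without symbols that end in -ps, a rule on symbols that uses no expression value. There were 44 members among 8139 rows: 38 nuclear protein-coding genes, 3 protein-coding genes of the mitochondrial genome and 3 models of pseudogenes or antisense RNA. The annotation holds 223 protein-coding genes with such symbols, of which 41 (18.4%) were listed, and the others were not analysed here.

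The RNA came from mast cells grown out of C57BL/6 bone marrow, with 1 wild type (WT) library and 1 Tet2-/- library. The Tet2 protein is a dioxygenase that acts on methylated cytosine in DNA. Both cultures were grown from femoral marrow with interleukin-3 and stem cell factor and exceeded 97.5% purity by FcεRI and c-Kit staining, per the labels. The sources used here do not give how the Tet2 allele was made, or the number and age of the mice. Since each genotype is a single library, differences could not be set against a spread between replicates and no p-values were computed.

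Respiratory complexes I, III and IV pass electrons to oxygen and pump protons across the inner mitochondrial membrane, and complex V, the ATP synthase, uses that gradient to make ATP. Most of their subunits, and all proteins of the mitochondrial ribosome (mitoribosome), are encoded in the nucleus, made in the cytosol and brought in through the TOM complex of the outer membrane and the TIM complexes of the inner membrane. A small set of core subunits is encoded on the mitochondrial genome, is transcribed there as long polycistronic RNA and is translated by the mitoribosome. Complexes I, III, IV and V therefore need messages from both genomes, whereas complex II is wholly nuclear.

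The 3 listed mitochondrial messages come from neighbouring genes on 1 strand of the mitochondrial genome, and their 3′ ends are shown because they mark how closely the genes are packed. The sequences are those of the GENCODE transcripts (build GRCm38, the same as mm10), with the last bases of the reading frame in capitals.
mt-Co3: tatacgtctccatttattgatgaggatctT
mt-Nd3: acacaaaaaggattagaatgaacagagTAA
mt-Nd4l: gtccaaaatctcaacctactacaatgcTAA
The mt-Co3 frame (chrM:8607-9390, 784 bases) ends with 1 base past its last whole codon, a T, which the poly(A) tail is known to complete to a stop codon. The mt-Nd3 frame (chrM:9459-9806, 348 bases) and the mt-Nd4l frame (chrM:9877-10173, 297 bases) end in a whole TAA. The last 7 bases of mt-Nd4l are also the first 7 bases of mt-Nd4, capitalised in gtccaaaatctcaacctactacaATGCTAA (shared bases chrM:10167-10173), and in mammals these genes lie on a shared message. Only the tRNA genes mt-Tg and mt-Tr separate the listed frames.

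Levels are given as RPKM, read counts scaled by gene length and by library size, which allows levels of different genes to be compared per length. A ratio is the RPKM in Tet2-/- over that in WT, and the range in brackets is a 95% exact (Clopper-Pearson) interval that covers counting error only. A log2 fold is the difference, Tet2-/- minus WT, of log2(RPKM + 1), which understates the change of low genes. In bulk RNA, fewer mitochondria or cells of a type and less RNA in each cannot be told apart.

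No member differed by 2-fold or more, the fixed rule of size used in place of a test. Of the 44 members, 42 averaged 1 RPKM or more, and 0 of these 42 lay past 2-fold, where 2.9% of 2107 models in the table were higher and 1.61% lower (4.51% in either direction, and 2.6% of protein-coding models). At a smaller threshold, a log2 fold of 0.32 in either direction, 3 members were higher in Tet2-/- (Cox6c, Mrpl20 and mt-Nd4l) and 1 was lower (mt-Nd3), which is 7.14% and 2.38% of the 42, against 12% and 8.64% of all models (20.6% in either direction). The 37 nuclear protein-coding members that averaged 1 RPKM or more had log2 folds from -0.30 to 0.39 with a median of 0.05, beside 0.01 for all models. Of these 37, 26 (70.3%) were higher in Tet2-/- by any amount, where the background was 52.1% of protein-coding models and 52% of all models. These members are short, with a median transcript of 908 bases beside 2280 bases for protein-coding models outside the rule. Of other protein-coding models, 67.3% under 500 bases and 68.1% from 500 to under 800 bases were higher, beside 48.2% of at least 2000 bases. Past the smaller threshold were 2 of the 37 (5.41%) on the higher side and 0 on the lower, against 10.3% and 7.18% of protein-coding models, or 17.5% in both directions. Levels in WT and Tet2-/- had a Spearman's rho of 0.99 across the 37 genes, which are not independent replicates. Over the other protein-coding models rho was 0.98.

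The nuclear members spanned more than 2 orders of magnitude in level, and their medians differed by role. Of the roles with at least 3 genes, ATP synthase subunits stood highest, with a median of 261 RPKM in WT and 269 RPKM in Tet2-/-, then complex III subunits (155 and 168 RPKM) and complex I subunits (78.7 and 86.0 RPKM). Mitoribosome subunits had a median of 32.3 and 35.3 RPKM and import subunits 25.2 and 26.6 RPKM. The 4 assembly factors, which help to build the complexes without staying in them, had a median of 7.02 and 6.28 RPKM. These medians rest on 3 to 11 genes each.

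**Figure D1:**
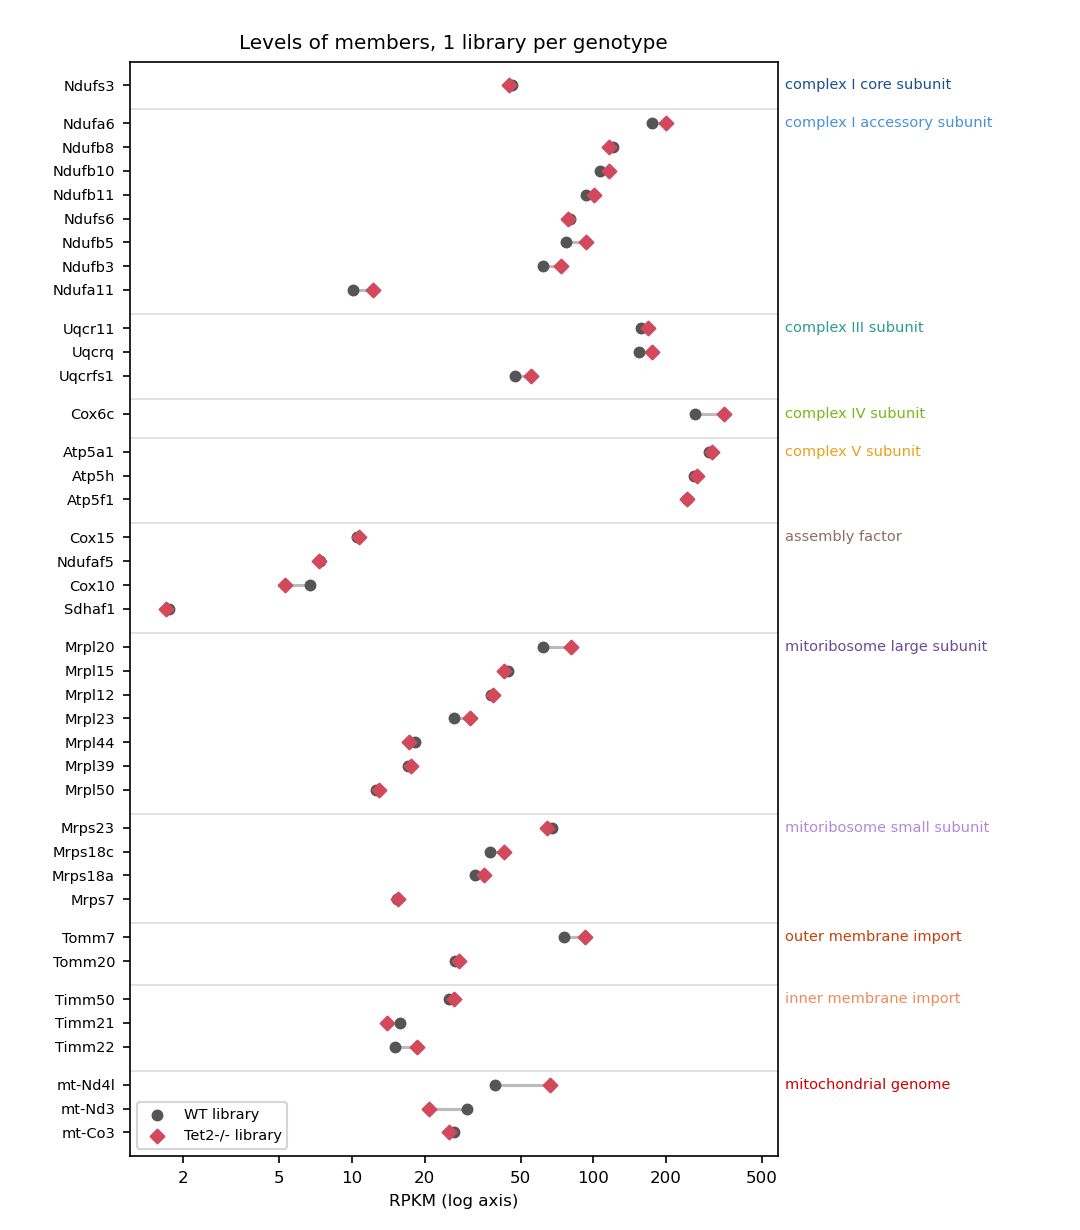
RPKM on a log axis of 36 of the 37 nuclear protein-coding members that averaged 1 RPKM or more and the 3 mitochondrial genome members, with 1 row per gene, grouped by role. Circles are the WT library and diamonds the Tet2-/- library, and the markers overlap or nearly touch for most genes, while mt-Nd4l (39.2 and 66.3 RPKM) and mt-Nd3 (30.05 and 20.8 RPKM) are furthest apart.

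Complex I, the NADH dehydrogenase, was represented by 2 core and 8 accessory nuclear subunits. The core subunits carry out electron transfer. Ndufs3, one of them, measured 46.2 in WT and 44.9 RPKM in Tet2-/- (ratio 0.97, interval 0.90 to 1.05), so its interval included 1.

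The accessory subunits surround the core and are needed for its assembly and stability. They were higher in Tet2-/- in 6 of 8 cases, beside 52.1% of protein-coding models, with a median log2 fold of 0.16. Their median transcript has 627 bases, and 68.1% of other protein-coding models from 500 to under 800 bases were higher. With the correction of transcript length for fragment length undone, the median log2 fold of the 7 accessory subunits that allow it was 0.10. Ndufb5 was at 77.3 and 93.4 RPKM (ratio 1.21, interval 1.11 to 1.32). Ndufb3 was at 61.9 and 73.2 RPKM (ratio 1.18, interval 1.09 to 1.28). Ndufb10 was at 106 and 116 RPKM (ratio 1.09, interval 1.03 to 1.17), and Ndufb11, which is X-linked, at 93.3 and 101 RPKM (ratio 1.08, interval 1.02 to 1.15). These 4 genes had intervals above 1, but each stayed below the smaller threshold. They are 57.1% of the 7 accessory subunits with an interval, beside 28.4% of protein-coding models. Of other protein-coding models from 500 to under 800 bases, 37% had intervals above 1.
Ndufa11 was by far the lowest listed subunit, at 10.1 and 12.2 RPKM, and its interval included 1 (0.92 to 1.58). Ndufa6 was the highest, at 174 and 200.4 RPKM, and has no interval because its shortest transcript is 300 bases long. Ndufb8 (120.1 and 115.6 RPKM) and Ndufs6 (80.0 and 78.7 RPKM) were slightly lower in Tet2-/-, both with intervals that included 1. No subunit of complex II was analysed here, and the factor Sdhaf1, which helps to load iron-sulphur clusters into it, was at 1.74 and 1.70 RPKM.

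All 3 listed complex III subunits were higher in Tet2-/-, beside 52.1% of protein-coding models. The shortest transcripts of Uqcr11 and Uqcrq have 445 and 405 bases, and 67.3% of other protein-coding models under 500 bases were higher. The longest transcript of Uqcrq has 1521 bases, so its length class and its interval depend on the choice of the shortest. Uqcrfs1, the Rieske iron-sulphur protein that takes electrons from ubiquinol, measured 47.3 in WT and 54.99 RPKM in Tet2-/- (ratio 1.16, interval 1.09 to 1.24). Uqcrq, a small subunit of the complex, was at 154.7 and 175.1 RPKM (ratio 1.13, interval 1.04 to 1.23). Uqcr11, another small subunit, was at 158 and 168 RPKM, its interval including 1 (0.99 to 1.15). None of the 3 passed the smaller threshold.

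Cox6c, an accessory subunit of cytochrome c oxidase (complex IV) on chromosome 15 (35925886 to 35938246), had the widest difference of the nuclear members. It measured 263.8 in WT and 347.05 RPKM in Tet2-/- (ratio 1.32, interval 1.251 to 1.38) on an estimated 2737 and 3587 fragments. Exons of Cox6c overlap those of Vps13b on the opposite strand by up to 250 bases, and whether the library kept strand is not stated. Of the assembly factors of the same complex, the members Cox10 and Cox15 had a lower and a nearly equal value in Tet2-/-. Outside the rule, the complex IV assembly gene Pet117 was higher, at 0.923 and 2.15 RPKM, on about 15 fragments in WT. Cox10, which makes haem O for the oxidase (chromosome 11, 63962627 to 64079468), was at 6.69 and 5.27 RPKM (ratio 0.79, interval 0.69 to 0.89), a log2 fold of -0.30. Cox15, which turns haem O into the haem A of the oxidase, was at 10.5 and 10.7 RPKM (ratio 1.02, interval 0.95 to 1.097). The enzymes of consecutive steps therefore stood apart in their values, although the difference between them was not tested. Ndufaf5, an assembly factor of complex I, was at 7.35 and 7.29 RPKM.

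The ATP synthase subunits had nearly equal levels in both libraries. Atp5a1, the alpha subunit of the catalytic head, measured 300.9 in WT and 309.6 RPKM in Tet2-/- (ratio 1.03, interval 1.01 to 1.05) on an estimated 21564 and 22694 fragments. Atp5f1, the b subunit of the stalk that holds the head in place, was at 245.0 and 244.8 RPKM (ratio 1.00, interval 0.97 to 1.03). Atp5h, the d subunit of that stalk, was at 261 and 269 RPKM (ratio 1.03, interval 0.97 to 1.09). The intervals of all 3 lie within 10% of equal levels, which these fragment numbers allow for counting error alone.

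Mitoribosome genes had a median log2 fold of 0.04 over 11 subunits, 7 of the large and 4 of the small subunit. Mrpl20 of the large subunit (chromosome 4, 155802878 to 155809975) stood out at 61.7 in WT and 80.5 RPKM in Tet2-/- (ratio 1.30, interval 1.16 to 1.47). Mrpl23, at the exit of the nascent chain tunnel, was at 26.6 and 30.9 RPKM, and its interval of 1.00 to 1.34 lay just above 1. The other 5 large subunit genes had intervals that included 1. Mrpl12, which is also known to bind the mitochondrial RNA polymerase, was at 37.6 and 38.3 RPKM. Mrpl15 was at 44.3 and 42.5 RPKM, and Mrpl44, an RNase III-like protein of the large subunit, at 18.3 and 17.2 RPKM. Mrpl39 was at 17.0 and 17.6 RPKM and Mrpl50 at 12.6 and 13.0 RPKM, so these 5 genes differed by less than 10%.
No small subunit gene had an interval beyond 1. Mrps18c was at 37.2 and 42.8 RPKM (ratio 1.15, interval 0.99 to 1.34). Its paralogue Mrps18a, which despite its name is now placed in the large subunit but was counted by its symbol here, was at 32.3 and 35.3 RPKM. Mrps7, which contacts the ribosomal RNA of the small subunit head, was at 15.4 and 15.6 RPKM. Mrps23 was the highest of this group at 67.5 and 64.0 RPKM and has no interval, because its shortest transcript is 332 bases long. The 14 cytosolic ribosomal protein genes that averaged 1 RPKM or more had a median log2 fold of 0.29. Of these, 13 were higher in Tet2-/-, beside 52.1% of protein-coding models. Their median transcript has 526 bases, beside 1320 bases for the 11 mitoribosome subunits, so the 2 sets also differ in length. That the mitoribosome median log2 fold is smaller was not tested.

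Import genes differed in both directions. Tomm7, a small TOM subunit that also stabilises PINK1 at the outer membrane, measured 75.3 in WT and 92.6 RPKM in Tet2-/- (ratio 1.23, interval 1.16 to 1.30). Tomm20, the receptor that recognises presequences, was at 26.8 and 27.7 RPKM (ratio 1.04, interval 0.86 to 1.24). That interval rests on its shortest transcript of 458 bases, while its longest has 4902 bases. At the inner membrane, Timm22, the channel for carrier proteins, was at 15.04 and 18.7 RPKM (ratio 1.24, interval 1.05 to 1.46). Timm50, the presequence receptor of the TIM23 complex, was at 25.2 and 26.6 RPKM (ratio 1.06, interval 0.97 to 1.15). Timm21, which links that complex to the respiratory chain, was the only listed import gene lower in Tet2-/-, at 15.8 and 14.0 RPKM (ratio 0.89, interval 0.81 to 0.97). Tomm7 and Timm22 thus had intervals above 1 (2 of 5, beside 28.4% of protein-coding models). The interval of Timm21 lay below 1 (1 of 5, beside 23.6%), and none of the 5 genes passed the smaller threshold. These counts are too small to be read against those shares.

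**Figure D2:**
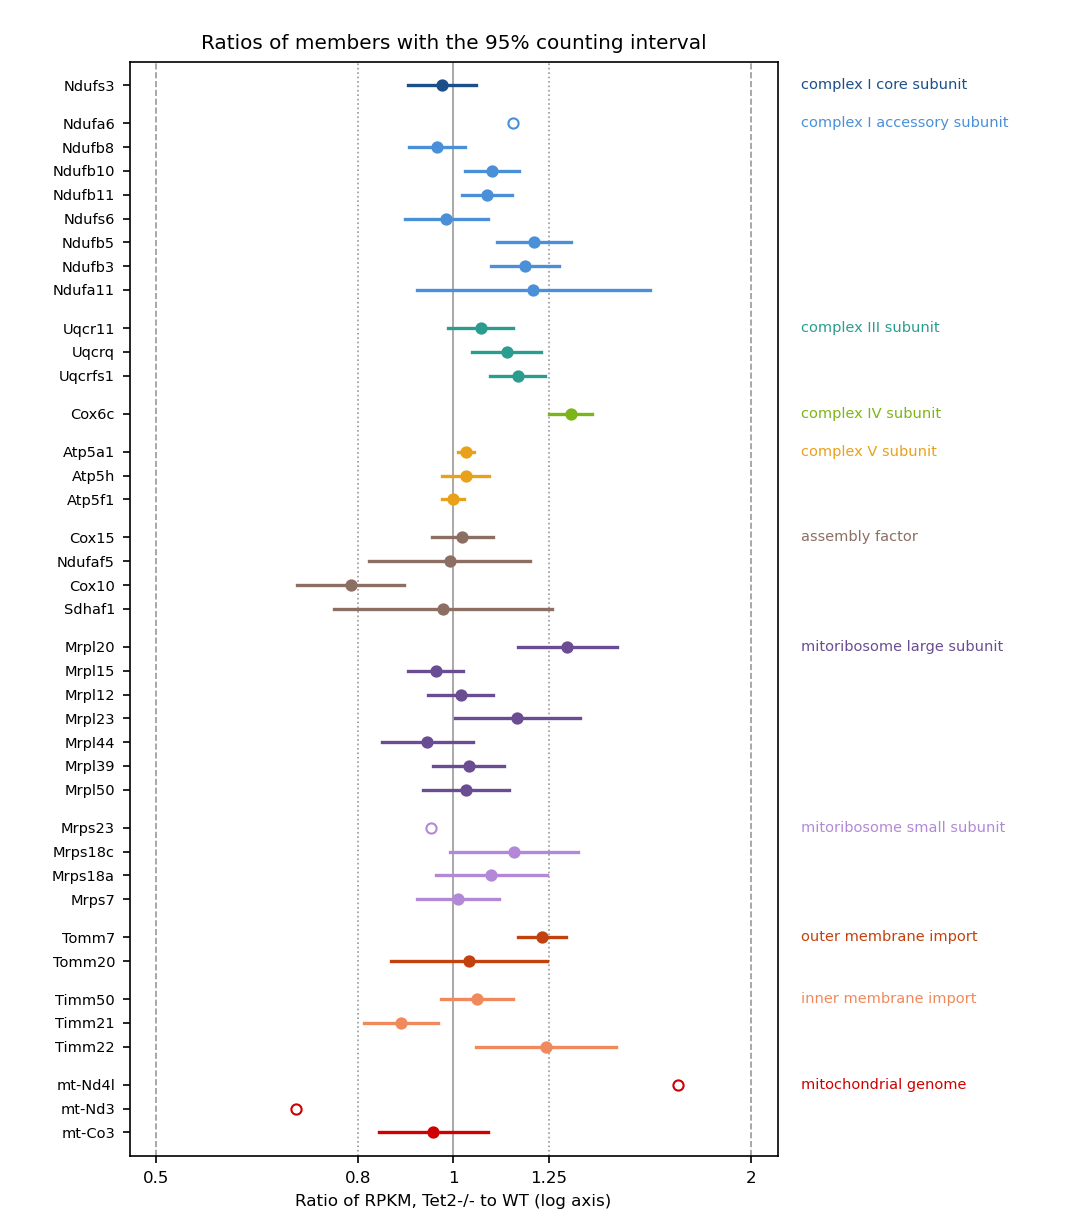
Ratio of RPKM, Tet2-/- to WT, on a log axis for the same 39 genes, with horizontal lines for the 95% counting interval; open circles have no interval because the shortest transcript is under 400 bases. Solid, dotted and dashed vertical lines mark a ratio of 1, the smaller threshold (0.32 as a log2) and 2-fold, the last 2 in either direction, and no gene lies beyond the dashed lines. Ratios carry no pseudocount, so Cox10 (0.79) lies past the lower dotted line although its log2 fold of RPKM + 1 (-0.30) does not pass the threshold.

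Counting intervals could be made for 35 of the 37 nuclear members. Of these, 12 (34.3%) lay above 1, where the background was 28.4% of protein-coding models. Another 2 (5.71%), those of Cox10 and Timm21, lay below 1, where the background was 23.6%. That background differs with length. Of other protein-coding models, 6.67% under 500 bases, 10.4% from 500 to under 800 and 13.2% from 800 to under 1200 lay below 1. From 1200 to under 2000 bases the share was 20.7%, and from 2000 bases 29.5%. With the fragment-length correction undone, 10 of the 35 members (28.6%) lay above 1, without Mrpl23 and Uqcrq, beside 27.2% of protein-coding models. Below 1 lay 2 members, beside 24.6%. An interval beyond 1 shows only that these 2 libraries differ by more than counting error, and it does not cover the spread between cultures or mice.

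The 3 mitochondrial genome members had unlike log2 folds, with mt-Nd3 and mt-Nd4l in opposite directions. The log2 fold of mt-Co3 lay within the range of the nuclear members (-0.30 to 0.39), and those of mt-Nd3 and mt-Nd4l lay outside it. The oxidase subunit message mt-Co3 measured 26.4 in WT and 25.2 RPKM in Tet2-/- (ratio 0.95, interval 0.84 to 1.08) on an estimated 505 and 487 fragments. The complex I subunit message mt-Nd3 was at 30.05 and 20.8 RPKM, a log2 fold of -0.51. The complex I subunit message mt-Nd4l was at 39.2 and 66.3 RPKM, a log2 fold of 0.74, the widest difference of any member. Their median log2 fold was -0.06, beside 0.05 for the nuclear members, but this median is the value of mt-Co3 and the other 2 lie on either side of it. Within the WT library mt-Nd4l stood 1.31 times as high as mt-Nd3 and within the Tet2-/- library 3.19 times, a comparison that no scaling between libraries can move.
The mt-Nd3 and mt-Nd4l frames are shorter than 400 bases, so that few start positions are left for a fragment and their RPKM depends strongly on the fragment length. The fragments of these 2 messages were estimated after the values were seen. The length correction came from genes of at least 250 and under 400 bases, 40 in WT and 31 in Tet2-/-. It was solved from whole fragment numbers set with the corrections of longer genes, 170 and 180 bases. It is therefore no independent measure for short genes. On this estimate mt-Nd3 rested on about 169 and 113 fragments and mt-Nd4l on about 158 and 253. The counting intervals were then 0.54 to 0.88 for mt-Nd3 and 1.38 to 2.07 for mt-Nd4l. How reads were assigned between mt-Nd4l and the overlapping mt-Nd4 was not tested. Besides these, 10 of the 13 protein-coding genes of the mitochondrial genome were not analysed here.

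**Figure D3:**
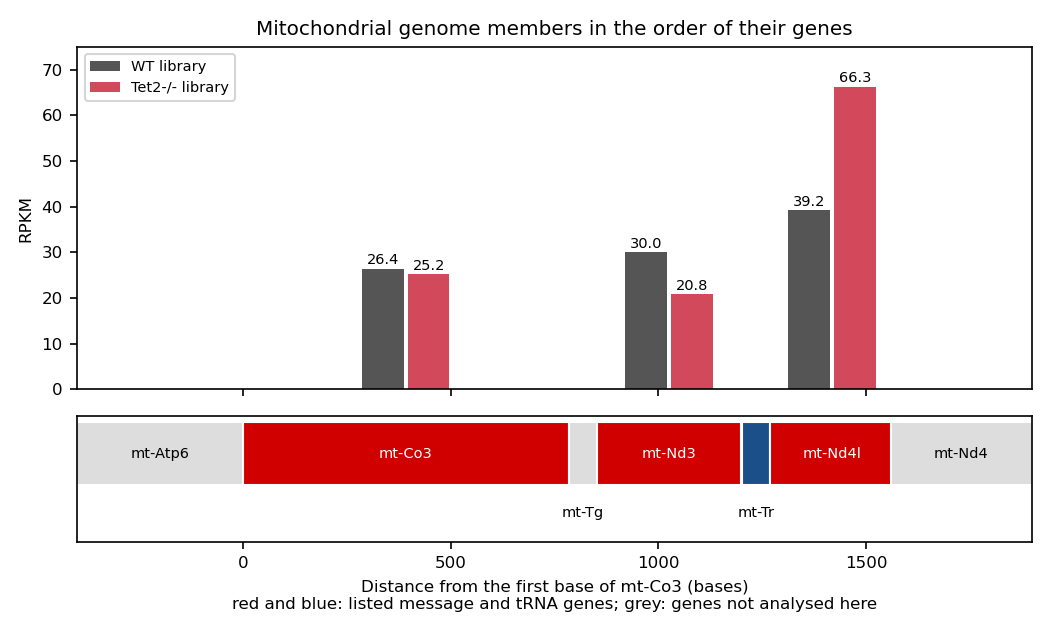
Bars give RPKM from 0 of the mitochondrial members in WT and Tet2-/-, placed over a scale map of their genes by distance in bases from the start of mt-Co3. In Tet2-/-, mt-Co3 is near its WT value (25.2 against 26.4 RPKM), mt-Nd3 is lower (20.8 against 30.05) and mt-Nd4l is higher (66.3 against 39.2).

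Per length, the mitochondrial messages lay below the median of their nuclear partners. Their levels of 20.8 to 66.3 RPKM over both libraries compare with a median of 78.7 RPKM in WT and 86.0 RPKM in Tet2-/- for nuclear complex I subunits, and the single listed nuclear subunit of complex IV, Cox6c, was 9.99 times as high as mt-Co3 in WT and 13.8 times in Tet2-/-. Mitochondrial messages are usually among the most abundant in poly(A)-selected libraries. How reads of the mitochondrial genome were aligned and filtered is not given in the sources used here, so the levels of the mitochondrial and nuclear members may not be comparable.

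Short messages tended to stand higher in Tet2-/-. Across the 37 nuclear members, the log2 fold had a Spearman's rho of -0.48 with transcript length, a description across genes that share both libraries. Over the 1729 other nuclear protein-coding models rho was -0.12. The 9 nuclear members with a transcript under 500 bases had a median log2 fold of 0.18, and the 9 from 500 to under 800 bases 0.21. The 4 from 800 to under 1200 bases had 0.05, the 8 from 1200 to under 2000 bases 0.02 and the 7 of at least 2000 bases 0.03. Other protein-coding models showed a smaller difference in the same order, with medians of 0.08, 0.12, 0.04, -0.01 and -0.01 over 55, 135, 167, 391 and 981 genes.
The spacing of low RPKM values implied that 170 bases had been taken off each transcript length in WT and 180 bases in Tet2-/-, as a mean fragment length would be. A larger correction raises the RPKM of short transcripts. With that correction undone, the 35 nuclear members that allow it had a median log2 ratio of 0.035 in place of 0.052, Cox6c a ratio of 1.28 in place of 1.32, Mrpl20 1.26 in place of 1.30 and Ndufb5 1.18 in place of 1.21. Undoing the correction also moved the medians of the length classes. Under 500 bases, the median log2 ratio went from 0.179 to 0.116 in 7 nuclear members and from 0.06 to 0.005 in 30 other protein-coding models. From 500 to under 800 bases, it went from 0.215 to 0.18 in 9 members and from 0.121 to 0.092 in 135 other models. The cause of the relation with length was not tested.

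**Figure D4:**
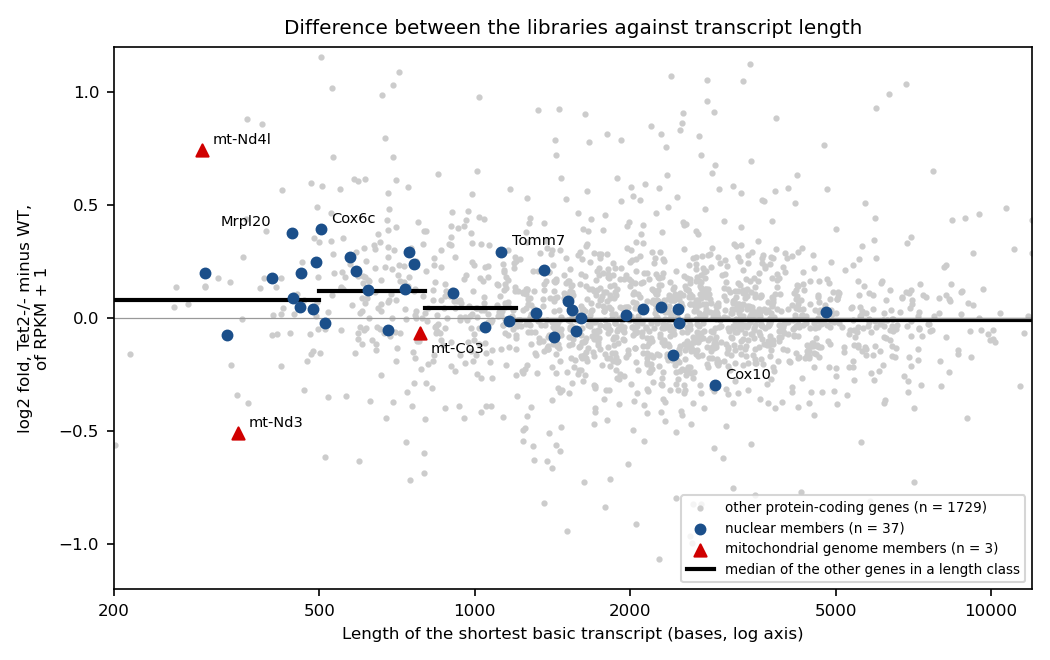
Log2 fold of RPKM + 1, Tet2-/- minus WT, against the length of the shortest basic transcript on a log axis, for the 37 nuclear members, the 3 mitochondrial members and 1729 other protein-coding genes, of which 43 lie outside the axes. Black bars are the medians of the other genes in each length class, from 0.08 and 0.12 on the left to -0.01 on the right, and most nuclear members under 800 bases lie above 0.

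Promoters of the nuclear members were searched for 3 motifs of factors known to bind genes of this kind, NRF1 (TGCGCA), the ETS family including GABP (CCGGAAG) and YY1 (ATGGCG), on both strands of the 300 bases from 250 before to 50 after the RefSeq start (GRCm38.p6). Of the 38 nuclear genes, 29 matched the promoter table by symbol. The NRF1 motif was in 10 of 29 (34.5%), against 14.7% of 1397 other protein-coding genes that averaged 1 RPKM or more and 8.79% of all 27025 genes of the promoter table. The ETS motif was in 9 (31%), against 23.5% and 9.93%, and the YY1 motif in 7 (24.1%), against 19.2% and 10.2%. Matches of different motifs were counted separately, even if they overlapped, and a match is a run of letters and not a shown binding site.
Windows of the 160 bases before the start are shown for Mrps18a, the member that holds all 3 motifs, and for the members with the lowest and the highest log2 fold among those with a promoter sequence, Cox10 and Mrpl20. Capitals mark matches.
Mrps18a (chr17:46110844-46111003, plus strand): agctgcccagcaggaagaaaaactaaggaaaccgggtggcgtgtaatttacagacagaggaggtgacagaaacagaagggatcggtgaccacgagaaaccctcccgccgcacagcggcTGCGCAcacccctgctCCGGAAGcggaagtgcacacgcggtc
Cox10 (chr11:64079473-64079632, minus strand): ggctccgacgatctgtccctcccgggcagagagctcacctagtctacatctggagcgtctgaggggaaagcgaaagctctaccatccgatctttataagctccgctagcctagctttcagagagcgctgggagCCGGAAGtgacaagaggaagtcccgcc
Mrpl20 (chr4:155802718-155802877, plus strand): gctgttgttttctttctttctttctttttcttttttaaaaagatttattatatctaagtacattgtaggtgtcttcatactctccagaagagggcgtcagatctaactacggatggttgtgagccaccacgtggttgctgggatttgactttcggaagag
Mrps18a carries the NRF1 motif from 42 and the ETS motif from 26 bases before the start, Cox10 the ETS motif from 27 bases before it, and the Mrpl20 window holds none of the 3. The YY1 motifs of Mrps18a and Cox10 lie outside the windows shown. The median log2 fold was 0.03 with and 0.08 without an NRF1 motif (10 and 19 members), 0.03 and 0.09 for the ETS motif (9 and 20) and 0.08 and 0.05 for the YY1 motif (7 and 22). It was 0.04 in the 21 members with any of the 3 and 0.22 in the 8 with none, and these differences were not tested.

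Pseudogene and antisense members were low. Mrpl23-ps1, a pseudogene of Mrpl23, measured 6.03 in WT and 4.93 RPKM in Tet2-/-, its interval including 1, while Mrpl23 itself differed in the other direction, and reads shared between them could not be separated. Mrps36-ps3 was listed at 0.01 in both libraries, the value that stands for many models of the table. Tomm6os, an RNA antisense to Tomm6, was at 2.65 and 2.95 RPKM. Ndufa4l2, a paralogue of Ndufa4 known for its induction in low oxygen, was at 0.0407 and 0.0401 RPKM, about 1 fragment in each library, too few to show a difference.
Exons of 16 of the 38 nuclear members overlap exons of another gene on the opposite strand, 11 of them by at least 100 bases. The longest overlaps were 1733 bases of Sdhaf1 with E130208F15Rik, 530 bases of Ndufb5 with Mrpl47 and 444 bases of Cox15 with Entpd7. For these genes the values may hold reads of both strands.

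Mitochondrial genes outside the member rule were described through 8 lists with 215 genes, of which 40 were listed and 36 averaged 1 RPKM or more. Their median log2 fold was -0.06, with 14 higher (38.9%, beside 52% of all models) and 22 lower in Tet2-/-. Past the smaller threshold were 2 on the higher side (5.56%) and 4 on the lower (11.1%), beside 12% and 8.64% of all models. The lists are too short for a count within 1 of them to be read against these shares. In the list of mitochondrial translation and RNA factors, 2 of 8 (25%, beside 8.64% of all models) were lower past the smaller threshold and 0 (beside 12%) higher. Its highest members were the threonyl-tRNA synthetase gene Tars2 at 27.9 and 25.5 RPKM, the tRNA 3′ processing enzyme gene Elac2 at 13.9 and 15.1 RPKM, Gatc at 11.6 and 11.3 RPKM and the initiation factor gene Mtif3 at 9.26 and 6.58 RPKM (ratio 0.71, interval 0.59 to 0.85). The other gene past the smaller threshold was the asparaginyl-tRNA synthetase gene Nars2, at 5.55 and 4.12 RPKM, named after its value was seen.

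Among genes of mitochondrial dynamics and the outer membrane, 2 of 3 were lower past the smaller threshold, where the share of all models was 8.64%. Bnip3l, a receptor that targets mitochondria for autophagy, measured 79.2 in WT and 62.7 RPKM in Tet2-/- (ratio 0.79, interval 0.77 to 0.82). Mief2, which recruits the fission enzyme, was at 8.11 and 5.77 RPKM (ratio 0.71, interval 0.63 to 0.81). The pore gene Vdac2 was at 123.3 and 123.8 RPKM, nearly equal in both libraries.
Of the assembly and related respiratory chain genes outside the rule, 9 of 10 averaged 1 RPKM or more, and 2 of these 9 (22.2%, beside 12% of all models) were higher past the smaller threshold and 0 (beside 8.64%) lower. The highest were Cyc1, the cytochrome of complex III, at 49.8 and 52.1 RPKM, Uqcc1 at 20.8 and 20.6 RPKM, Higd1a at 18.1 and 16.6 RPKM and Tmem70, an ATP synthase assembly factor, at 17.6 and 20.1 RPKM. The 2 past the smaller threshold, named after their values were seen, were Lyrm7, which assists insertion of the Rieske protein into complex III, at 1.99 and 3.84 RPKM (ratio 1.93, interval 1.62 to 2.29), and Pet117, a complex IV assembly gene, at 0.923 and 2.15 RPKM on about 15 fragments in WT. Pet117 averaged 1 RPKM only through the library where it was high, so its call is no support for a difference.

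The remaining lists held no gene past the smaller threshold that averaged 1 RPKM or more. The 4 genes of pyruvate entry and the tricarboxylic acid cycle showed a median log2 fold of 0.03, with Mpc1 at 53.5 and 58.5 RPKM, Dlst at 47.1 and 47.5 RPKM and Pdha1, of pyruvate dehydrogenase, at 30.6 and 26.9 RPKM (ratio 0.88, interval 0.83 to 0.93). Dlat was at 18.5 and 19.1 RPKM. Protein quality and import genes had a median of -0.06 over 5 genes, with the chaperonin gene Hspd1 at 126 and 121 RPKM, Mtx1 at 40.4 and 43.2 RPKM, Pmpca, of the presequence-cleaving protease, at 33.3 and 31.0 RPKM and Spg7 at 33.1 and 31.8 RPKM. Genes of mitochondrial DNA maintenance and transcription had a median of -0.11 over 4 genes, with Dguok at 29.4 and 26.2 RPKM, Tfb2m, a factor of the mitochondrial RNA polymerase, at 10.8 and 11.6 RPKM, Polg2 at 3.96 and 3.21 RPKM and Mterf2 at 3.59 and 3.38 RPKM. Among regulators of biogenesis, Pprc1 was at 16.3 and 15.7 RPKM, Sirt1 at 9.14 and 10.4 RPKM and Ppara at 0.162 RPKM in WT and listed at 0.01 in Tet2-/-. Sod2, the mitochondrial superoxide dismutase gene, was at 17.1 and 16.3 RPKM, Ucp3 was below 0.1 RPKM in both and Ucp1 was listed at 0.01 in both.

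Inferred depths were 31150000 fragments for WT and 32000000 for Tet2-/-. Of 14 mast cell markers 3 were listed, Fcer1g, Slc18a2 and Mitf, with a summed level of 1200 RPKM in WT and 960 RPKM in Tet2-/-, while Kit, Fcer1a, Tet2 and the other markers were not analysed here, so the expression values give no check of the genotype. Of 11 macrophage and monocyte markers 5 were listed, with sums of 0.985 and 23.4 RPKM, all 5 higher in Tet2-/- and Ly6c2 alone at 0.479 and 18.8 RPKM. Of 8 neutrophil markers 3 were listed, with sums of 1.1 and 10.1 RPKM, of which Ly6g gave 1.0996 and 9.61 RPKM, and Csf3r was at 0.01 in both. Of 5 eosinophil markers 2 were listed, Ear2 at 0.117 and 1.45 RPKM and Il5ra at 0.712 and 0.820 RPKM. Of 8 erythroid and platelet markers only Ppbp, and of 7 markers of brown fat, muscle and testis only Ucp1, were listed, both at 0.01 in both libraries. Of the mast cell markers, Fcer1g (594 and 438 RPKM) and Slc18a2 (572 and 491 RPKM) were lower in Tet2-/-, while Mitf was at 31.3 and 30.9 RPKM. The part of these marker differences in the member differences was not tested.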

How the data were processed

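RPKM values for both genotypes were deposited by the authors in 1 table. The submitters' processing notes name mm10 as the build. Aligner, read counter, annotation and strandedness of the TruSeq library: not given in the sources used here. Of all models, 55.1% were listed at 0.01 in both libraries. The members and lists were chosen with earlier results of these data known. Every member may be named, except 1 that is not reported here beyond the counts and medians, and of each other list the 4 listed genes with the highest mean RPKM.

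Symbols were matched to GENCODE mouse release 21 (7841 matched 1 model), and the shortest basic transcript gave the length. Depth and the bases taken off each length were chosen on genes with 1 transcript. They were those at which RPKM times the shortened length times depth lay nearest to whole fragments. At these values, 96.3% of 353 genes in WT and 97.1% of 381 in Tet2-/- came within 0.1 of a whole number. Chance gives 20% for values fixed beforehand. Since these values were chosen on the same genes, that share is no baseline for the fit. These depths are inferred. Fragment numbers gave the Clopper-Pearson intervals where the shortest basic transcript had at least 400 bases. Where a gene also has longer ones, its fragment numbers and interval depend on this choice, which was not tested. Examples are Tomm20 (458 and 4902 bases), Timm22 (746 and 2817) and Ndufb8 (680 and 2142). Models entered counts with a mean of at least 1 RPKM. Depth recovery, calls and intervals were tested on simulated data. The simulated fragments had counting error only, in genes of at least 400 bases with the same shortest transcript lengths. They therefore do not test the choice of transcript, reads of the other strand or the short mitochondrial frames. Alternatives were other pseudocounts, filters, scalings and restrictions. Scripts ran on scipy 1.17.1, pandas 2.3.3, numpy 2.4.6 and Python 3.11.15, with plots by matplotlib 3.10.9.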

Additional observations from a re-analysis of the deposited data

How the results depend on the processing

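No paired analysis was possible because there is only 1 sample on either side, which also leaves no replicate to omit. Undoing the fragment-length correction was chosen after seeing the data. The count of members past the smaller threshold, a log2 fold of 0.32 (4), was 1 with transcripts of at least 500 bases, which leaves out Mrpl20 and both short mitochondrial messages, and 2 without the fragment-length correction, which leaves out the same mitochondrial messages. It was 5 at pseudocount 0.1, where Cox10 joined on the lower side (-0.34, against -0.30 as reported and -0.19 at pseudocount 5), and 4 under the other alternatives, and 0 members passed 2-fold under any alternative tried. Of all models, 95 passed 2-fold, while 47 did so at pseudocount 5, 56 under a minimum mean of 5 RPKM, 48 with transcripts of at least 500 bases and 49 without the correction, and 136 at pseudocount 0.1, 110 with no filter and 72 without models at 0.01 in either library. The 435 models past the smaller threshold became 267 at pseudocount 5 and 271 under a minimum mean of 5 RPKM, and rose to 522 at pseudocount 0.1 and 600 with no filter. The nuclear median log2 fold ranged from 0.03 to 0.05 and the mitochondrial one from -0.09 to -0.06. Median-ratio scaling moved each log2 fold by 0.01. The values of Atp5h and of the ATP synthase median turned from 0.04 to -0.0043 without the correction, both near 0. At the implied depth, Sdhaf1, Ndufa11 and Ndufaf5 rest on the fewest fragments of the nuclear members that averaged 1 RPKM or more and have an interval, down to 102 and 122 for Ndufa11.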

Other observations

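Besides the 3 messages, 6 of the 22 tRNA genes of the mitochondrial genome were listed. Among them, mt-Te, mt-Tn and mt-Ty are annotated on the minus strand. The gene mt-Te had 1439 in WT and 906 RPKM in Tet2-/-. The gene mt-Tl1 had 177 and 221 RPKM and mt-Tn 282 and 354 RPKM. The genes mt-Tf and mt-Tr were listed at 0.01 in both libraries, and mt-Ty at 0.01 in WT and 583 RPKM in Tet2-/-. The tRNA genes are 67 to 75 bases long, shorter than the 170 and 180 bases taken off transcript lengths, so their RPKM has no usable length behind it.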
